A study of Mus musculus with 6 samples.

Results

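The genes described here serve PPAR-alpha signalling, fatty acid oxidation and ketone body formation in the liver. They are 38 of the 43346 genes in a deposited count table and were found by their listed gene symbols. All 38 had a row, and all 38 passed the filter on low counts. They fall into 3 regulators and secreted proteins, 5 genes of fatty acid uptake, binding and activation, 19 genes of mitochondrial oxidation, 6 peroxisomal genes and 5 Cyp4a genes. The class names are loose. The uptake class also holds Vnn1 and the thioesterase gene Acot1, and the mitochondrial class also holds Acot2, Pdk4 and Bdh1.

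PPAR-alpha is a nuclear receptor that fatty acids activate. With its partner RXR it switches on genes that bring fatty acids into mitochondria and peroxisomes and shorten them there, and the acetyl-CoA that results feeds ketone body formation during fasting. In rodent liver the Cyp4a genes, which encode omega-hydroxylases of fatty acids, are among the strongest targets of the receptor.

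RNA was sequenced from liver tumours of mice that all overexpressed SULF2, an extracellular sulfatase of heparan sulfate, and that had been given diethylnitrosamine (DEN), a liver carcinogen. The comparison is between 3 tumours with WT Gli1 and 3 with Gli1 KO, and it asks what loss of this Hedgehog pathway transcription factor did in such tumours. Both groups carried the transgene, named Sulf2-TTR in the titles, and there was no group without it. The labels give no strain, sex, age or fasting state, and they do not say whether the tumours came from separate animals, so the p-values measure the spread between these samples, which may in part be technical.

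The libraries held 75205624 to 132979502 gene counts, and the 38 genes took 0.595 to 1.05% of them. Gli1 itself had 10, 20 and 7 reads in WT replicates 1, 2 and 3 and 4, 3 and 3 reads in the KO replicates. The KO libraries were thus below the WT libraries, as labelled, but Gli1 was barely detected in either genotype. Mouse Sulf2 had 17313 reads in KO replicate 1, 6100 in WT replicate 1 and 350 to 875 in the others, and the labels do not say whether the transgene is the mouse sequence. Hepatocyte markers were abundant in every library, with the summed level of 10 markers between 178572.7 and 236688.9 normalized CPM. CPM are counts scaled to a common library size that includes each library's TMM factor. Adipocyte markers, which could add Cd36 and Angptl4 reads, summed to at most 2.15 CPM, and Lep and Retn were at 0 throughout. On the main axis of variation over all genes (42.7% of variance), WT replicate 3 at 80.9 and KO replicate 1 at 65.2 lay apart from the other libraries, at -67.9 to -7.

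Sequence near the start sites was searched because PPAR-alpha with RXR binds direct repeats. RefSeq windows of build GRCm38.p6 were available for 30 of the 38 genes, which had 32 windows of 250 bases before a start. The 8 genes with no window, which were not searched, were Acaa2, Angptl4, Cyp4a10, Cyp4a12a, Cyp4a14, Cyp4a31, Decr1 and Vnn1. Of the Cyp4a members, only Cyp4a32 was searched. The motif searched was AGGTCA followed by any base and by AGGTCA again, on both strands. At most 1 mismatch among its 12 fixed letters was found in 1 member window, that of Fabp1, against 0.484% of all 32851 windows. At most 2 mismatches were found in 3 member windows, those of Fabp1, Cd36 and Etfa, against 3.24% of all windows. At most 3 mismatches were found in 9 of 32 member windows, against 21.3% of all windows, and a single AGGTCA in 5, against 14%. A match is a description of letters and not a shown binding site. The Fabp1 sequence is given because it held the closest match, at chr6:71199629-71199826 on the plus strand, with the match in capitals. The match starts 67 bases before the RefSeq start and reads as the reverse complement of the motif. The windows of the other 2 genes are printed on the strand of each gene, at chr5:17835947-17835959 for Cd36 and at chr9:55512308-55512320 for Etfa.
Fabp1 promoter: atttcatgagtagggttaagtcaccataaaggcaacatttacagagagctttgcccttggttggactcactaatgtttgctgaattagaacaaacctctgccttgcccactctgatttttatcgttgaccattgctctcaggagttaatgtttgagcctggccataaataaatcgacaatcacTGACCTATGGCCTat
Cd36 window: TGGCCTCTGACTT
Etfa window: TTACCTTTGCCCT

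No member passed between Gli1 KO and WT tumours. In edgeR's quasi-likelihood test, 0 of 38 members had a false discovery rate (FDR) under 0.05 and the lowest FDR among them was 1, against 0% of the 18359 genes tested. At an unadjusted p under 0.05 there was 1 member, the thioesterase gene Acot2, against 3.62% of all genes (1.6% higher and 2.02% lower in KO). DESeq2 called 0 members, against 0.352% of the genes it adjusted, and limma voom called 0. The log2 fold change (KO minus WT) was above 0 for 11 members and below 0 for 27, against 48.2% above 0 among all genes. The median over members was -0.19, where the median over all genes was -0.01, and the median SE of a member was 0.35. Leaving out WT replicate 3 gave a median of -0.35, and leaving out KO replicate 1 or WT replicate 1 gave -0.02 in each case. The split of 11 above and 27 below became 18 and 20 without WT replicate 1 and 17 and 21 without KO replicate 1. It was 7 and 31 without WT replicate 3 or KO replicate 3. With 1 library left out, members other than Acot2 also had an unadjusted edgeR p under 0.05. These were Fabp1 and Pdk4 without WT replicate 1, and Acot1 and Cyp4a12a without WT replicate 2. They were Cyp4a10, Cyp4a14 and Etfdh without WT replicate 3 and Cyp4a31 without KO replicate 2. Over all genes tested, 778, 614, 1779 and 566 had such a p in these fits in turn. WT replicate 3 and KO replicate 1 stood apart on the main axis, and without both of them the median was -0.17, with 0 members past FDR 0.05.

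**Figure D1:**
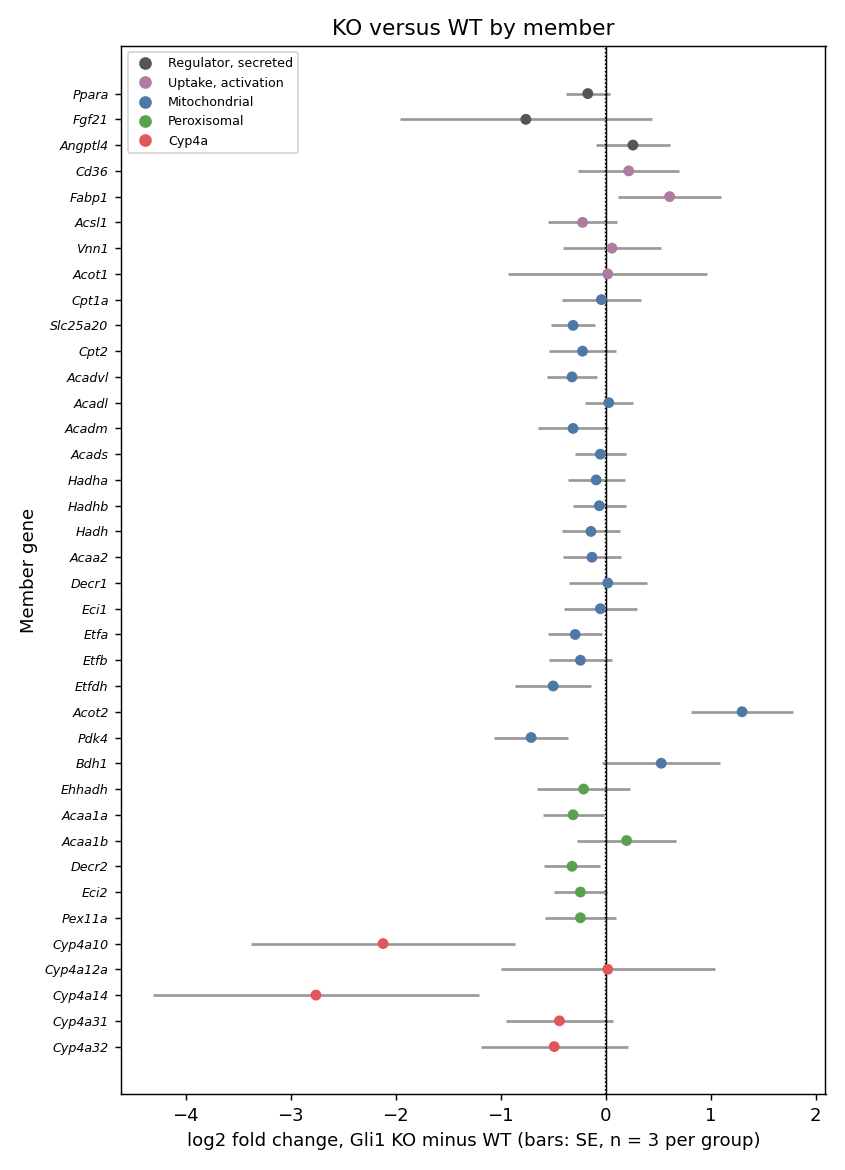
Log2 fold change of each member, Gli1 KO minus WT, from edgeR, with points coloured by class, bars of 1 SE (n = 3 per group) and a dotted line at the median of all genes. Most points lie between -0.5 and 0.6, while Cyp4a10 at -2.12 and Cyp4a14 at -2.76 lie far to the left with the widest bars.

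Tumours of the same genotype differed widely. The SD of log2 CPM within genotypes had a median of 0.52 over the members and 0.38 over all genes. By class it was 0.39 for mitochondrial, 0.46 for peroxisomal and 1.58 for Cyp4a members. The groups overlapped for 37 members, and the exception was Pdk4, which was lower in KO, against 8.11% of all genes without overlap (4.15% higher and 3.96% lower in KO). With libraries scaled to total counts, Pdk4 overlapped too.

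**Figure D2:**
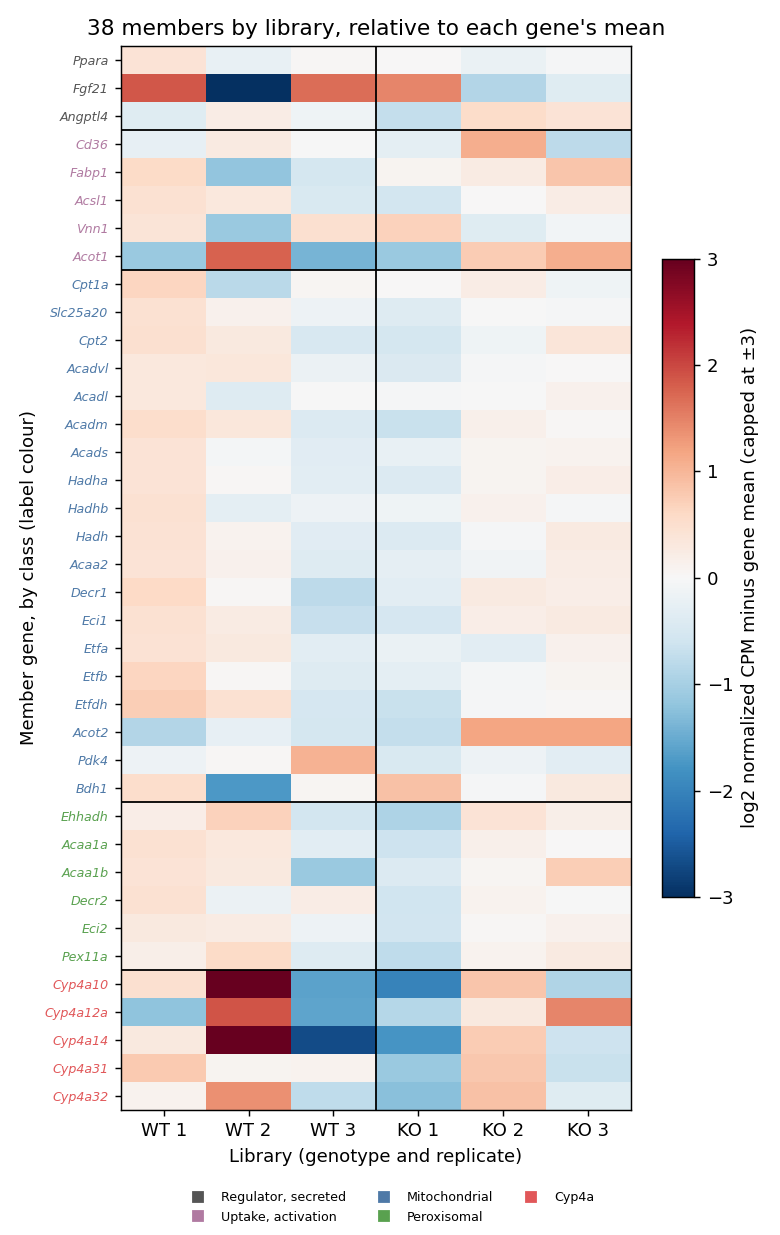
Log2 normalized CPM of each member in each library minus that gene's mean, with rows by class and the WT and KO libraries separated by a line. The mitochondrial and peroxisomal rows are mostly blue in WT replicate 3 and KO replicate 1, and Cyp4a10 and Cyp4a14 are dark red in WT replicate 2.

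The receptor gene itself was even. Ppara (chromosome 15, 85734983 to 85802819) had 124, 79.9 and 96.5 CPM in WT replicates 1, 2 and 3 and 94.7, 81.7 and 91.7 CPM in the KO replicates. All 3 KO values lay inside the WT range. On the log2 scale KO minus WT was -0.17 ± 0.21 (SE, 3 tumours per genotype; edgeR unadjusted p = 0.45), and it had the smallest SD within genotypes of all members, 0.24. Without WT replicate 1 the fold change was 0.02.

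Of the secreted products, Fgf21 was the most variable. It encodes a hormone that the liver releases in fasting and under amino acid or mitochondrial stress. WT replicates 1, 2 and 3 had 73.8, 1.52 and 65.1 CPM and the KO replicates had 56.0, 11.1 and 15.9. WT replicate 2 was 48.6-fold below WT replicate 1, and the groups overlapped fully. Its log2 fold change was -0.76 ± 1.20 (edgeR unadjusted p = 0.548), which became 0.10 in limma voom. It was -1.79 with KO replicate 1 left out and -0.27 with WT replicate 1 left out. Angptl4, a secreted inhibitor of lipoprotein lipase, had 69.8, 105 and 82.5 CPM in the WT tumours against 55.0, 132 and 120 in the KO tumours, a difference of 0.26 ± 0.35 on the log2 scale. KO replicate 1 was the lowest library for Angptl4 and KO replicate 2 the highest, and without KO replicate 2 the difference was 0.05 and without KO replicate 1 it was 0.57.

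Of the 3 regulators and secreted products, 1 was above 0 on the log2 scale and 2 were below, with a median of -0.17.

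Of the 5 genes of uptake, binding and activation, 4 were above 0 and 1 was below, with a median of 0.06 and 0 past FDR 0.05. Fabp1 stood far above all other members. It encodes the fatty acid-binding protein of liver cytosol. By deposited RPKM, which are reads scaled by library size and by the deposited gene length, Fabp1 averaged 2738.4 over the 6 libraries, and the next member, the mitochondrial thiolase gene Acaa2, averaged 350. WT replicates had 2320.3, 683 and 1075.5 CPM of Fabp1 and KO replicates had 1633.0, 1834.3 and 2761.2. WT replicate 1 lay inside the KO range and the other WT libraries lay below it. The log2 difference of 0.61 ± 0.49 (edgeR unadjusted p = 0.254) became 1.24 without WT replicate 1 and 0.29 without WT replicate 2.

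Cd36, which encodes a fatty acid transporter of the cell surface, had 70.8, 101 and 83.1 CPM in the WT tumours against 68.6, 178 and 48.7 in the KO tumours. The KO libraries held both the lowest and the highest value. Its log2 fold change of 0.22 ± 0.48 turned to -0.53 without KO replicate 2 and to -0.03 in limma voom. Acsl1, the main long-chain acyl-CoA synthetase of liver, had 849, 758 and 444 CPM in the WT tumours against 421, 619 and 716 in the KO tumours (-0.22 ± 0.33). WT replicate 3 and KO replicate 1 were its lowest libraries. Vnn1, a pantetheinase gene, ranged from 27.8 CPM in WT replicate 2 to 96.9 in KO replicate 1, with a log2 fold change of 0.06 ± 0.47.

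Acot1, a cytosolic acyl-CoA thioesterase gene, had 2.73, 20.3 and 2.26 CPM in the WT tumours against 2.73, 10.1 and 12.7 in the KO tumours. It was low in 3 libraries, WT replicates 1 and 3 and KO replicate 1, and higher in the other 3. On the log2 scale the difference was 0.02 ± 0.95, and it ran from -0.43 without WT replicate 3 to 1.77 without WT replicate 2.

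The mitochondrial members formed the most even class. Of 19, 4 had a log2 fold change above 0 and 15 below, with a median of -0.13, and 0 passed FDR 0.05. This median was -0.31 without WT replicate 3 and 0.09 without WT replicate 1, so leaving out that library turned its sign. Between libraries the class was highest in WT replicate 1, where the median member lay 0.46 log2 units above its own mean, and 15 of 19 members had their highest value there. WT replicate 3 at -0.33 and KO replicate 1 at -0.38 were lowest, with the other libraries at -0.02 to 0.13. In WT replicate 3, 16 of 19 members were below their mean, and in KO replicate 1 17 of 19 were.

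**Figure D3:**
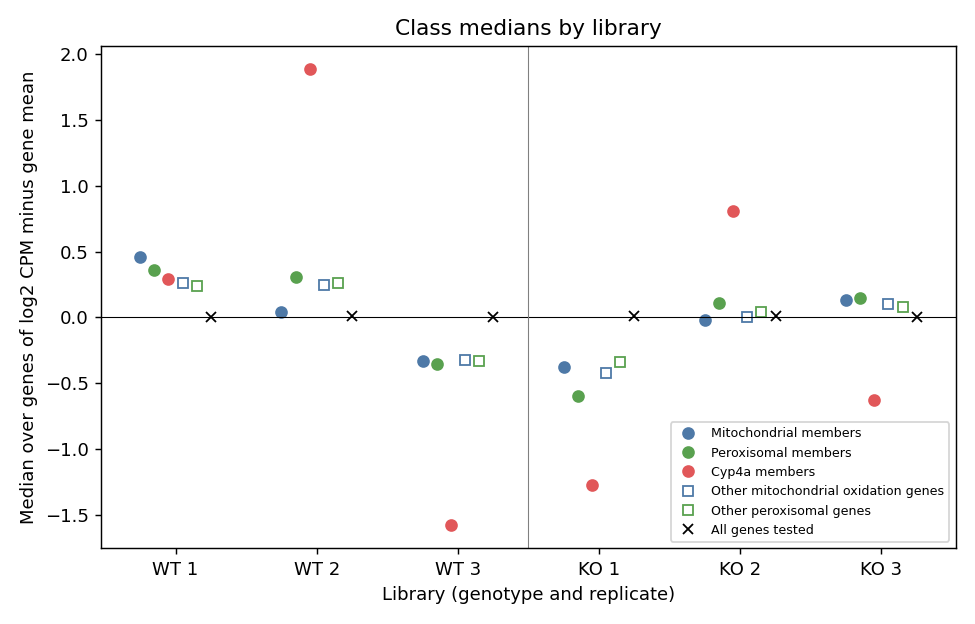
Median over the genes of each class of log2 CPM minus the gene mean, by library, for the mitochondrial, peroxisomal and Cyp4a members (filled), the other listed genes of 2 classes (open) and all genes tested (crosses). Mitochondrial and peroxisomal medians dip below 0 in WT replicate 3 and KO replicate 1, and the Cyp4a median reaches 1.89 in WT replicate 2.

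The carnitine shuttle carries long-chain fatty acids into mitochondria. Cpt1a, its rate-controlling outer enzyme, had 1198.5, 442 and 809 CPM in the WT tumours against 777, 893 and 707 in the KO tumours. The KO values lay inside the WT range, and WT replicate 2 was the lowest library. KO minus WT came to -0.04 ± 0.38 on the log2 scale, and it was 0.34 without WT replicate 1 and -0.34 without WT replicate 2. Slc25a20, the carnitine-acylcarnitine carrier of the inner membrane, ranged from 64.5 to 116 CPM (-0.31 ± 0.21), and Cpt2, the inner enzyme, from 56.6 to 114 CPM (-0.22 ± 0.32). By deposited RPKM, Cpt1a exceeded Cpt2 in every library, with an RPKM ratio of 2.47 in WT replicate 2 and 3.78 to 7.66 in the others.

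The acyl-CoA dehydrogenases take the first step of each round, and each acts on a range of chain lengths. Acadvl, for very long chains, had a log2 fold change of -0.32 ± 0.24, Acadl 0.03 ± 0.23, Acadm, for medium chains, -0.31 ± 0.33 and Acads, for short chains, -0.05 ± 0.24. Their highest library was 1.62 to 2.27 times their lowest. Acadm showed the split between libraries most clearly, with 403, 353 and 212 CPM in the WT tumours against 177, 313 and 289 in the KO tumours.

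Hadha and Hadhb encode the alpha and beta subunits of the mitochondrial trifunctional protein, which completes the round for long chains. The genes lie head to head on chromosome 5, with 85 bases between the deposited end of Hadha (30155162) on the minus strand and the deposited start of Hadhb (30155248) on the plus strand. The interval, chr5:30155163-30155247, is shown on the plus strand from RefSeq because the 2 subunit genes share it, and 69.4% of it is G or C.
Hadha-Hadhb interval: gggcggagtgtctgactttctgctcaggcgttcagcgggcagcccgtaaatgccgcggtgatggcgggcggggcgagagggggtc
Hadha had 361, 277 and 220 CPM in the WT tumours against 204, 290 and 312 in the KO tumours (-0.09 ± 0.27). Hadhb had 239, 142 and 156 CPM in the WT tumours against 158, 188 and 170 in the KO tumours (-0.06 ± 0.25). Both were highest in WT replicate 1, and they differed in WT replicate 2, which was the lowest library for Hadhb and a middle one for Hadha. The RPKM ratio of Hadha to Hadhb stayed between 1.59 and 2.41. The motif given above was not found within 3 mismatches in the window of either gene.

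Hadh, the 3-hydroxyacyl-CoA dehydrogenase for shorter chains, had a log2 fold change of -0.14 ± 0.28 and Acaa2 -0.13 ± 0.28. Decr1 (0.02 ± 0.37) and Eci1 (-0.05 ± 0.35) prepare unsaturated fatty acids for oxidation, and both were lowest in WT replicate 3, at 78.6 and 31.5 CPM, and highest in WT replicate 1, at 205 and 70.5 CPM. The electron-transfer flavoprotein passes electrons from the dehydrogenases to the respiratory chain. Its subunit genes Etfa and Etfb had fold changes of -0.29 ± 0.26 and -0.24 ± 0.30.

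Etfdh, the oxidoreductase that receives those electrons, had 238, 196 and 101 CPM in the WT tumours against 90.8, 140 and 147 in the KO tumours. WT replicates 1 and 2 lay above all KO libraries, and WT replicate 3 lay among them. Its log2 fold change was -0.50 ± 0.36 (edgeR unadjusted p = 0.209) and was -0.78 without WT replicate 3 and -0.23 without WT replicate 1.

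Acot2, the mitochondrial thioesterase, had the largest positive difference of all members. WT replicates had 4.82, 7.44 and 6.15 CPM and KO replicates had 5.41, 19.9 and 19.9. KO replicates 2 and 3 were above every WT library, and KO replicate 1 lay within the WT range. On the log2 scale the difference was 1.30 ± 0.49 with an unadjusted edgeR p of 0.0358 and an FDR of 1, and it ran from 1.05 to 1.71 with each library left out. The unadjusted edgeR p stayed under 0.05 without KO replicate 1, but not with any other single library left out. In limma voom, with or without quality weights, the unadjusted p was not under 0.05. Acot2 is a close neighbour and paralog of Acot1 on chromosome 12, and 24.5% of the 50-base words of its transcript also occur in that of Acot1, so reads may have been split or dropped between them.

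Pdk4 encodes a kinase that shuts down pyruvate dehydrogenase and so spares glucose when fat is burned. It was the lowest member by deposited RPKM, at 1.48 RPKM on average. WT replicates had 5.11, 5.79 and 11.6 CPM and KO replicates had 4.10, 5.08 and 4.51. WT replicate 3 was high, and the gap between the groups was that between 5.11 and 5.08 CPM. KO minus WT came to -0.71 ± 0.35 on the log2 scale (edgeR unadjusted p = 0.0816) and -0.25 without WT replicate 3.

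Bdh1, which interconverts acetoacetate and beta-hydroxybutyrate, had 458, 97.6 and 336 CPM in the WT tumours against 585, 313 and 392 in the KO tumours. WT replicate 2 was far below the other 5 libraries, which overlapped. The log2 fold change of 0.53 ± 0.56 (edgeR unadjusted p = 0.37) was 0.12 without WT replicate 2 and 0.99 without WT replicate 1.

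**Figure D4:**
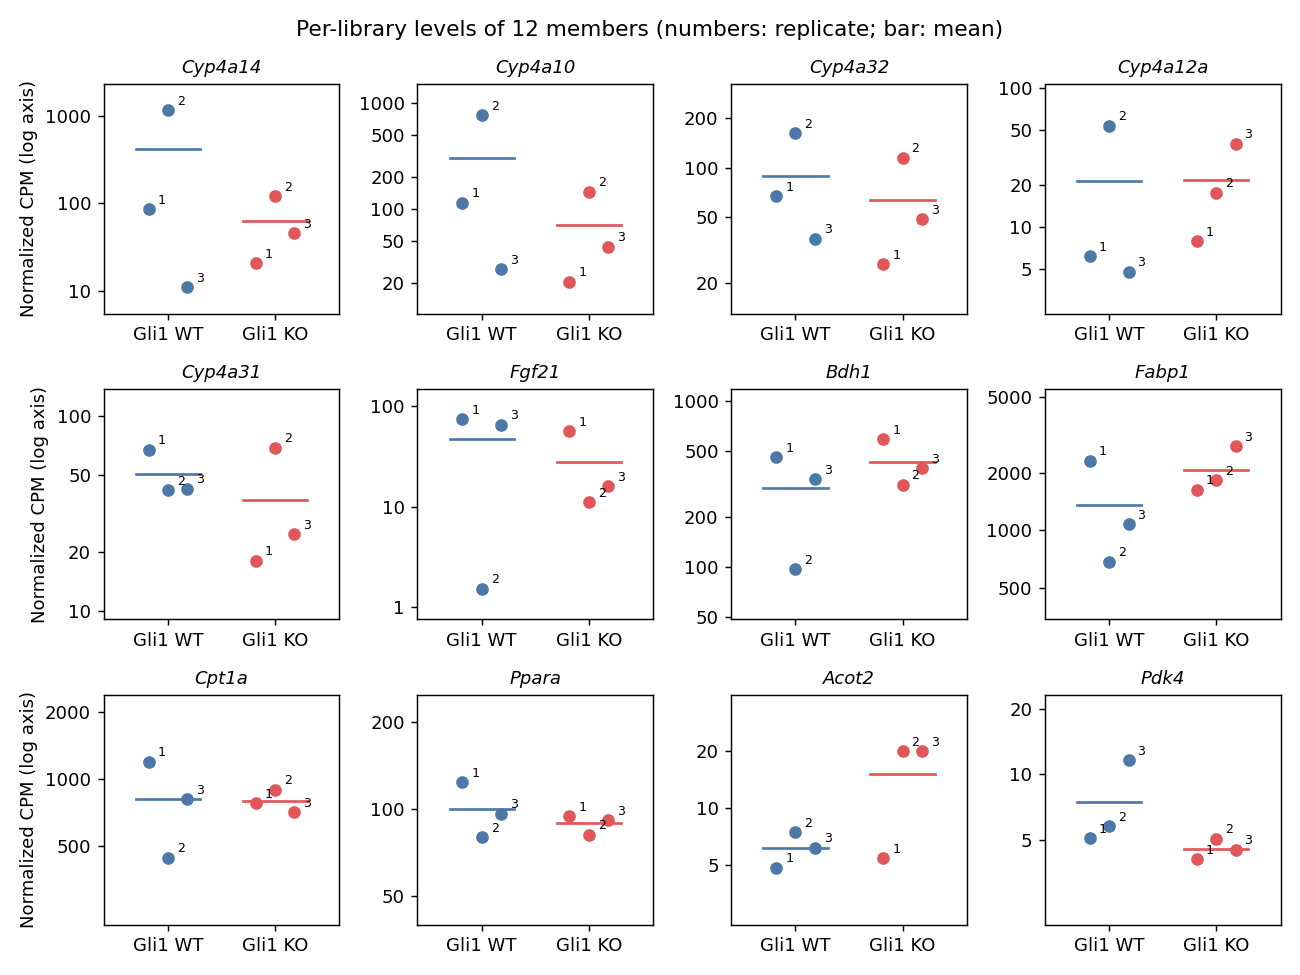
Normalized CPM of 12 members in each library on log axes, WT in blue and KO in red, with replicate numbers beside the points and a bar at each group mean. WT replicate 2 is the highest library for Cyp4a14, Cyp4a10, Cyp4a32 and Cyp4a12a and the lowest for Fgf21, Bdh1, Fabp1, Cpt1a and Ppara.

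The peroxisomal members, like the mitochondrial ones, were highest by class median in WT replicate 1 and lowest in KO replicate 1 and WT replicate 3, while WT replicate 2 and KO replicate 3 changed places between the classes. Of 6, 1 had a log2 fold change above 0 and 5 below, with a median of -0.24, and 0 passed. The class median was -0.35 log2 units in WT replicate 3 and -0.60 in KO replicate 1, against 0.11 to 0.36 in the other 4 libraries. KO replicate 1 was the lowest library for 5 of 6 members. Leaving out that library gave a median fold change of -0.01, and leaving out WT replicate 3 gave -0.41.

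Ehhadh, the bifunctional enzyme of peroxisomal oxidation and a classical PPAR-alpha target, had 229, 321 and 136 CPM in the WT tumours against 105, 264 and 224 in the KO tumours. The lowest values were those of KO replicate 1 and WT replicate 3. Its log2 fold change was -0.21 ± 0.44, which turned to 0.11 without WT replicate 2 and to 0.10 without KO replicate 1. The thiolase gene Acaa1b had 353, 324 and 123 CPM in the WT tumours against 199, 275 and 444 in the KO tumours (0.20 ± 0.47), and this turned to -0.14 without WT replicate 3 and to -0.17 without KO replicate 3.

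Its paralog Acaa1a had 173, 158 and 101 CPM in the WT tumours against 82.3, 139 and 127 in the KO tumours (-0.31 ± 0.29). Of the 50-base words of Acaa1a, 34% occur in Acaa1b, so the split between them is uncertain. By deposited RPKM Acaa1b exceeded Acaa1a in every library, by 2.72 times in WT replicate 3 and 7.86 times in KO replicate 3. Decr2, the peroxisomal dienoyl-CoA reductase, had 227, 146 and 191 CPM in the WT tumours against 109, 177 and 164 in the KO tumours (-0.32 ± 0.27). The isomerase gene Eci2 (-0.24 ± 0.25) and Pex11a (-0.24 ± 0.34), whose product elongates peroxisomes, were lowest in KO replicate 1 at 94.3 and 29.4 CPM.

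As a class the Cyp4a members had the widest spread, and WT replicate 2 held the highest value of 4 of them. Cyp4a14 (chromosome 4, 115486200 to 115496142) had 85.7, 1156.8 and 10.9 CPM in the WT tumours against 20.6, 119 and 45.3 in the KO tumours. Cyp4a10 (chromosome 4, 115518264 to 115533649) had 114, 768 and 26.7 CPM in the WT tumours against 20.3, 145 and 43.6 in the KO tumours. The WT libraries alone spanned 106-fold for Cyp4a14 and 28.8-fold for Cyp4a10, and both ends of the Cyp4a14 range were WT tumours. For Cyp4a10 the lowest library was KO replicate 1.

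The log2 fold changes were -2.76 ± 1.55 for Cyp4a14 (edgeR unadjusted p = 0.119) and -2.12 ± 1.26 for Cyp4a10 (unadjusted p = 0.138). Without WT replicate 2 they were 0.35 and -0.02, and without KO replicate 2 they were -3.65 and -3.24. The size of both differences thus depended on single libraries, most on WT replicate 2. Cyp4a14 shared 0% of 50-base words with Cyp4a10.

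Cyp4a32 had 66.8, 162 and 36.9 CPM in the WT tumours against 25.9, 115 and 48.7 in the KO tumours (-0.49 ± 0.70, 0.29 without WT replicate 2). WT replicate 2 and KO replicate 2 were its highest libraries. Cyp4a31 had 67.4, 41.6 and 42.5 CPM in the WT tumours against 18.1, 69.0 and 24.7 in the KO tumours (-0.44 ± 0.51, -1.23 without KO replicate 2 and -0.10 without KO replicate 1). For Cyp4a31, WT replicate 2 was not raised. Cyp4a10, Cyp4a31 and Cyp4a32 lie close together on chromosome 4, and 34.8% of the words of Cyp4a32 and 12.9% of those of Cyp4a31 also occur in Cyp4a10, so the 3 counts are uncertain.

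Cyp4a12a, a male-biased hydroxylase gene of mouse liver, had 6.21, 53.7 and 4.82 CPM in the WT tumours against 8.0, 17.7 and 39.9 in the KO tumours. Its high libraries were WT replicate 2 and KO replicate 3, and KO replicate 3 was not raised for Cyp4a10 or Cyp4a14. The log2 fold change of 0.02 ± 1.02 was -0.75 if KO replicate 3 was left out and 1.99 if WT replicate 2 was. Of its words, 48.9% occur in Cyp4a12b, and the RPKM ratio of the 2 genes stayed between 1.34 and 2.63.

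For the class as a whole, 1 of 5 members was above 0 and 4 were below, with a median of -0.49 and 0 past FDR 0.05. This median was 0.29 without WT replicate 2 and -1.24 without KO replicate 2. By library the class median was 1.89 log2 units in WT replicate 2 and 0.81 in KO replicate 2, and -1.58 in WT replicate 3 and -1.27 in KO replicate 1. The summed Cyp4a level was 2182.9 CPM in WT replicate 2 and 92.9 to 466 CPM in the others.

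**Figure D5:**
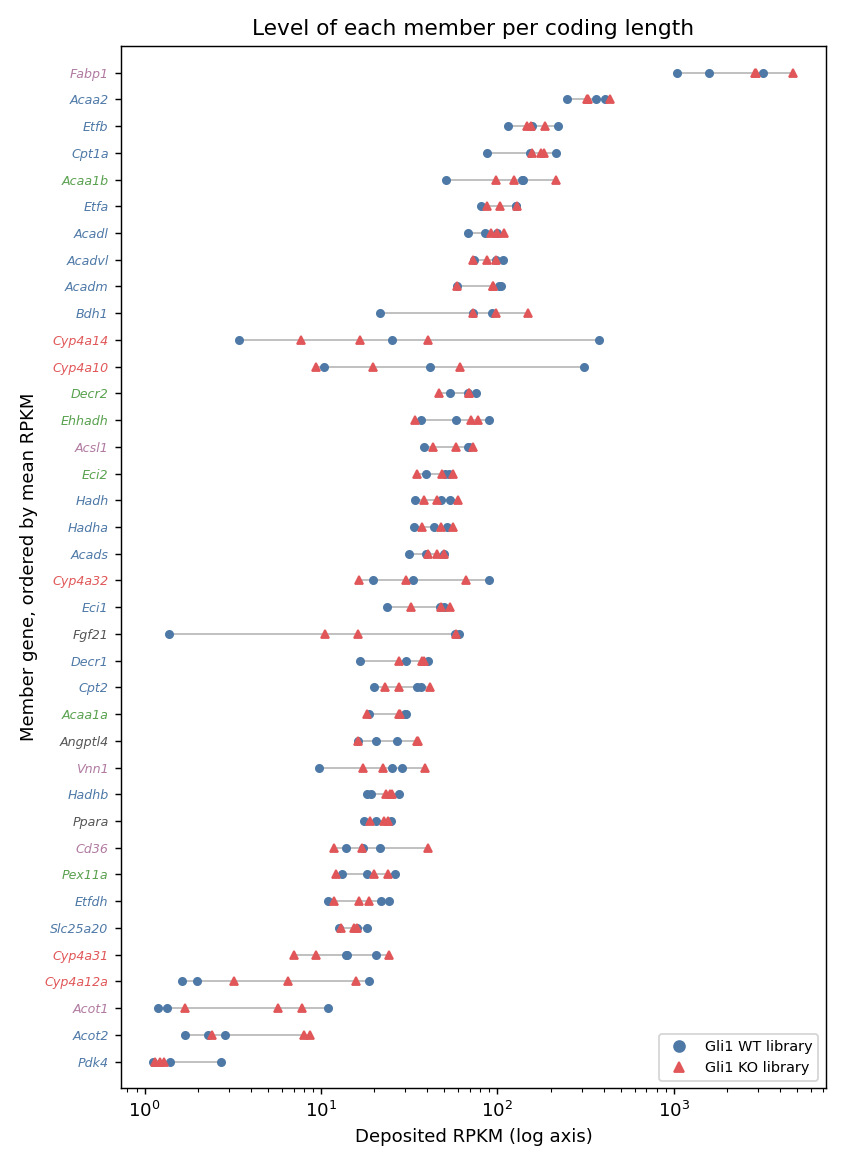
Deposited RPKM of each member in the 6 libraries on a log axis, ordered by mean, with WT as circles, KO as triangles and a line from the lowest to the highest library. Fabp1 lies highest and Pdk4 lowest, and Cyp4a14, Fgf21 and Cyp4a10 have the longest lines.

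Across all members, 27 of 38 had their lowest value in WT replicate 3 or KO replicate 1, against 37.8% of all genes. WT replicate 2 was highest for 8 members, among them 4 of 5 Cyp4a members, against 20% of all genes. Other cell types differed between these libraries too. The summed level of 7 stellate cell and fibroblast markers was 273 CPM in WT replicate 3 and 447 in KO replicate 1. It was 110 and 128 CPM in the other WT and 245 and 269 in the other KO libraries. KO replicate 1 was highest for 6 of these 7 markers. The exception was Dcn, which was lowest there at 49.5 CPM and highest in WT replicate 2 at 92.3. The summed level of 7 macrophage markers was 265 CPM in WT replicate 2. It was 74.7 and 157 in the other WT libraries and 56.9 to 96.0 in KO. WT replicate 2 was highest for 6 of these 7 markers, and Cd68 was highest in KO replicate 3, at 10.3 CPM. Adgre1 and Csf1r had 21.8 and 68.5 CPM in WT replicate 2 and nearly as much, 21.5 and 64.6, in WT replicate 3. Cholangiocyte markers summed to 22.5 CPM in WT replicate 3 and 19.9 in KO replicate 1, against 6.59 to 11 elsewhere. Neutrophil markers summed to 35.5 CPM in WT replicate 3 and 4.65 to 14.4 elsewhere. B and plasma cell markers summed to 59.5 CPM in WT replicate 3, 19.1 in KO replicate 1 and 5.39 to 8.89 elsewhere. Of these, Jchain alone gave 57 CPM in WT replicate 3 and 17.6 in KO replicate 1. The other markers of that list, Cd79a, Cd79b and Ms4a1, were each highest in WT replicate 1, at 1.37, 1.37 and 1 CPM. None of these lists had a marker at 0 in all libraries, and the part of these cells in the member levels was not tested. The hepatocyte sum was highest in WT replicate 3, at 236688.9 CPM, and lowest in KO replicate 1, at 178572.7 CPM. Alb made up most of it, at 161449.0 and 114642.6 CPM in these libraries in turn. Single hepatocyte markers differed in direction. Apoa2 had 2250.1 and 2298.8 CPM there, its lowest values, while Trf had 44724.8 and 39243.4 CPM, its highest. The part of hepatocyte content in the member levels was not tested. In such bulk tissue, fewer hepatocytes and less RNA per hepatocyte cannot be told apart.

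Of 145 other genes of the pathway that were tested, 0 passed in edgeR, 44 had a log2 fold change above 0 and 101 below, with a median of -0.17. At an unadjusted p under 0.05 there were 5, against 3.62% of all genes, and DESeq2 called 1, against 0.352%. The groups did not overlap for 7, against 8.11% of all genes. These counts are near or below those backgrounds. Other peroxisomal genes had 9 of 36 above 0 and a median of -0.14, and 29 of 36 were lowest in WT replicate 3 or KO replicate 1. Other mitochondrial oxidation genes had 6 of 23 above 0 and a median of -0.21, and 20 of 23 were lowest in those libraries.

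Klb, the co-receptor of FGF21, had the smallest p of these genes. It had 26.2, 30.7 and 27.3 CPM in the WT tumours against 16.5, 19.2 and 20.8 in the KO tumours, with no overlap. Its log2 fold change was -0.57 ± 0.15 with an unadjusted edgeR p of 0.00801 and an FDR of 1, and it ran from -0.65 to -0.48 with each library left out. Beside it in the list of receptors and cofactors, Lpin1, a phosphatidate phosphatase that also acts as a coactivator of PPAR-alpha, had -0.86 ± 0.44, with 67.9 CPM in KO replicate 1 and 167 to 343 elsewhere. Of the 20 genes in that list, 8 were above 0 and the median was -0.05.

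The other lists gave few low p-values. Among mitochondrial genes Hsd17b10, a dehydrogenase of short and branched chains, had -1.03 ± 0.37 (edgeR unadjusted p = 0.0275) and Cpt1b, the muscle form of the shuttle enzyme, had 0.58 ± 0.24 (unadjusted p = 0.0491) at 3.81 to 7.36 CPM. In peroxisomes Hacl1, a lyase of alpha-oxidation, had -1.67 ± 0.74 with 362 CPM in WT replicate 2 (-0.64 without it), and Pex3, a peroxisome assembly factor, had -0.31 ± 0.15. Of ketone body genes, 3 of 8 were above 0, with Aacs at 0.89 ± 0.50 (1.49 without WT replicate 3) and Acat1 at -0.81 ± 0.56 (-0.09 without WT replicate 1).

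Outside the Cyp4a members, 2 of 12 other Cyp4 and partner genes were above 0, with Cyp4b1 at -0.76 ± 0.26 (edgeR unadjusted p = 0.0219) and Cyp4x1 at -0.85 ± 0.59 and at most 0.37 CPM. Of uptake and binding genes, 8 of 18 were above 0, with the lysosomal lipase gene Lipa at 0.28 ± 0.18 and the transporter gene Slc27a1 at -0.43 ± 0.27. Of other reported targets, 8 of 28 were above 0, with the sterol hydroxylase gene Cyp8b1 at -3.50 ± 1.16 (unadjusted p = 0.0204) and the channel gene Aqp7 at 1.54 ± 0.69 and at most 0.893 CPM. Cyp8b1 was the gene that DESeq2 called (adjusted p = 0.0422). It had 190 and 124 CPM in WT replicates 1 and 2 and 4.74 in WT replicate 3, below the 6.41 to 14.8 CPM of the KO libraries.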

How the data were processed

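RNA was sequenced from 6 liver tumours, and the authors deposited 1 table of raw read counts and RPKM per gene. The tools listed, with no role stated, are TopHat2 2.0.6, HTSeq and bcl2fastq, and the builds listed are human, per the submitters' processing notes, while the deposited identifiers are those of mouse Ensembl. Strand in counting: not given in the sources used here. RPKM values as deposited use 1 length per gene, and served to compare genes. Libraries were mapped to groups by titles and description numbers.

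The deposited counts entered edgeR 4.0.16 (R 4.3.3; filterByExpr, TMM factors, robust quasi-likelihood test, two-sided, Benjamini-Hochberg over 18359 genes, threshold 0.05). Log2 CPM used a prior count of 2. DESeq2 1.42.0 and limma 3.58.1 were alternatives, with other scalings and filters. A block, a covariate for the description number (below 2000 against above 3900) and each library left out were others. WT replicate 1 and KO replicates 1 and 3 had the numbers below 2000, so the ranges were not balanced between genotypes. Leaving out WT replicate 3 with KO replicate 1 was a choice made after seeing the data. Fits were first checked on simulated counts.

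The members and lists were chosen with earlier results of these data known. Values per library were given by rule for 15 fixed members and, in each class, the 2 of smallest p and the 2 of largest change. From each other list the 2 genes of smallest p were named. Other genes were named after their values were seen. Of 214 other list entries, 4 had no match. A symbol with 2 rows kept the row with more reads. Shared 50-base words came from GENCODE M21 transcripts. Promoter sequences are RefSeq's (GRCm38.p6). Replicate numbers were not taken as pairs.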

Additional observations from a re-analysis of the deposited data

How the results depend on the processing

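No alternative called a member. The count of genes past FDR 0.05 was 0 under each alternative other than DESeq2, which called 64. The median fold changes of all, mitochondrial, peroxisomal and Cyp4a members each moved by less than their SD between replicates (0.36, 0.34, 0.41 and 1.44). With 3 libraries per genotype, leaving out 1 can hardly move a median by more than this SD, so that bound shows no stability. With each library left out the medians ran from -0.35 to -0.02, -0.31 to 0.09, -0.41 to -0.01 and -1.24 to 0.29, and calls stayed at 0. The mitochondrial and Cyp4a medians turned sign in that range. Same-numbered libraries did not deviate together as a rule (correlations -0.285, 0.18 and -0.343). Differently numbered pairs ran from -0.365 to 0.513, the last for WT replicate 3 and KO replicate 1. With the replicate block the calls stayed at 0, while Fgf21 was at 0.00 and Cpt1a at 0.06. Over all 38 members, 7 to 18 were above 0 with 1 library left out, 8 with the covariate, 13 with the block and 7 without both WT replicate 3 and KO replicate 1, where 11 were above 0 in the main test. Among the members recomputed singly, limma voom gave the opposite sign for Fgf21 (0.10), Cpt1a (0.06) and Cd36 (-0.03), and with quality weights for Fgf21 (0.15), Cpt1a (0.03) and Acaa1b (-0.05). Without both WT replicate 3 and KO replicate 1, Cyp4a12a was at -0.05 and Acot1 at -0.00. Single fold changes were recomputed for 23 of the 38 members, and sign turns among the other 15 are not listed by gene. With each library left out, those of the 23 whose sign turned ran from -0.30 to 0.02 (Ppara), -0.34 to 0.34 (Cpt1a), -0.53 to 0.54 (Cd36), -0.48 to 0.11 (Ehhadh), -0.17 to 0.46 (Acaa1b), -0.75 to 1.99 (Cyp4a12a), -3.65 to 0.35 (Cyp4a14), -1.24 to 0.29 (Cyp4a32), -0.43 to 1.77 (Acot1), -0.25 to 0.12 (Hadha) and -0.20 to 0.21 (Hadhb). The causes were not tested. With 3 libraries per genotype, SEs of 0.95 to 1.55 for Acot1, Cyp4a12a, Fgf21, Cyp4a10 and Cyp4a14 limit what can be said of them.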
